A study of Mus musculus with 24 samples.

Results

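Antigen presentation by major histocompatibility complex (MHC) class II was followed in mouse skin through 9 genes chosen by name: H2-Aa, H2-Ab1, H2-Eb1, H2-DMa, H2-DMb1, Cd74, Ciita, Cd207 and Itgax. The 5 H2 genes lie on chromosome 17, Cd207 on 6, Itgax on 7, Ciita on 16 and Cd74 on 18. They are 9 of 18892 genes in the deposited expression table, and all 9 passed the filter on low values that 13039 genes passed. Its values are FPKM, read fragments scaled to the length of the gene and to the depth of the library. Skin was taken from 24 mice, 4 in each of 6 groups. Treatment mice were injected daily with dihydrotestosterone (DHT), a potent androgen, and had an extract of Hanlianxiang (HLX), a traditional Chinese medicine formula, applied to the skin. Model mice had the same injections of DHT with only the solvent on the skin, and control mice had saline injections with the solvent. All groups therefore received a daily injection and a topical liquid, and mice of each kind were killed at day 10 or at day 15. Strain, sex, age, the doses and the state of the hair cycle are not stated in the sources used here. Each library is 1 mouse, and whole skin was used, so that a lower level can come from fewer cells of a type or from less RNA per cell, and these cannot be told apart.

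Class II molecules are heterodimers of an alpha and a beta chain that show peptides from internalised proteins to CD4+ T cells. In the endoplasmic reticulum the chains assemble around the invariant chain Cd74, which is later cut down by proteases to a fragment that H2-DM exchanges for an antigenic peptide. Transcription of the chain genes, of Cd74 and of H2-DM depends on the coactivator Ciita, which binds the RFX and NF-Y factors on the X and Y boxes of their promoters and which interferon gamma can induce. In skin the proteins are found mainly on Langerhans cells of the epidermis, which carry the lectin Cd207 (langerin), and on dermal dendritic cells and macrophages, of which many carry the integrin Itgax (CD11c).

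Some libraries stood apart in ways that touch the results. Whole reads recovered from the steps of the FPKM values came to 37048896 to 41117262 per library, and the lowest read number of any of the 9 genes in any library was 68, for Cd207. A set of 4 libraries of the treatment group (replicate 3 of day 10 and replicates 1, 2 and 4 of day 15) had 10.4 to 17.5 FPKM of the Y-linked gene Ddx3y, against 21.4 to 30.6 FPKM in the other 20 libraries. Y-linked Kdm5d (3.09 to 4.15 against 4.73 to 6.33 FPKM) and Uty (1.87 to 2.81 against 3.33 to 4.13 FPKM) were likewise lower. Eif2s3y overlapped (5.89 to 9.09 against 8.74 to 13.5 FPKM). These Y-linked genes were above 0 in all 24 libraries. Without these 4 libraries the treatment group of day 15 is replicate 3 alone, so several results that use treatment mice, though not all, are also given without them. Umod, a kidney gene, stood at 1.08 FPKM or more in the 8 model and control libraries of day 10 and was listed at 0 in the other 16. Model replicate 3 of day 15 had 78.3 FPKM of the leukocyte gene Ptprc, against 18.7 to 32.0 FPKM in the other model mice of that day. The label of skin was borne out by the keratinocyte genes Krt5, Krt14 and Krt10, whose sum was 751 to 2111 FPKM in every library.

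The class II genes were among the well expressed genes of the skin, and the group order was nearly the same for each of them. Cd74 averaged 523 FPKM over the 24 libraries, H2-Aa 358, H2-Ab1 208 and H2-Eb1 186 FPKM, whereas Ciita (1.52), Itgax (1.42) and Cd207 (3.66 FPKM) were low. H2-DMa had 3.48 and H2-DMb1 27.7 FPKM, although their median read numbers were 1026 and 1262.5. The FPKM values of H2-DMa were divided by an implied gene length of 8325 bases, and those of H2-DMb1 by 1284 bases. Model mice of day 15 had the highest group mean for 8 of the 9 genes. The exception was Cd207, whose highest mean was in control mice of day 10. Libraries of neighbouring groups in that order overlapped throughout, apart from 1 of 5 neighbouring pairs for H2-Ab1.

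**Figure D1:**
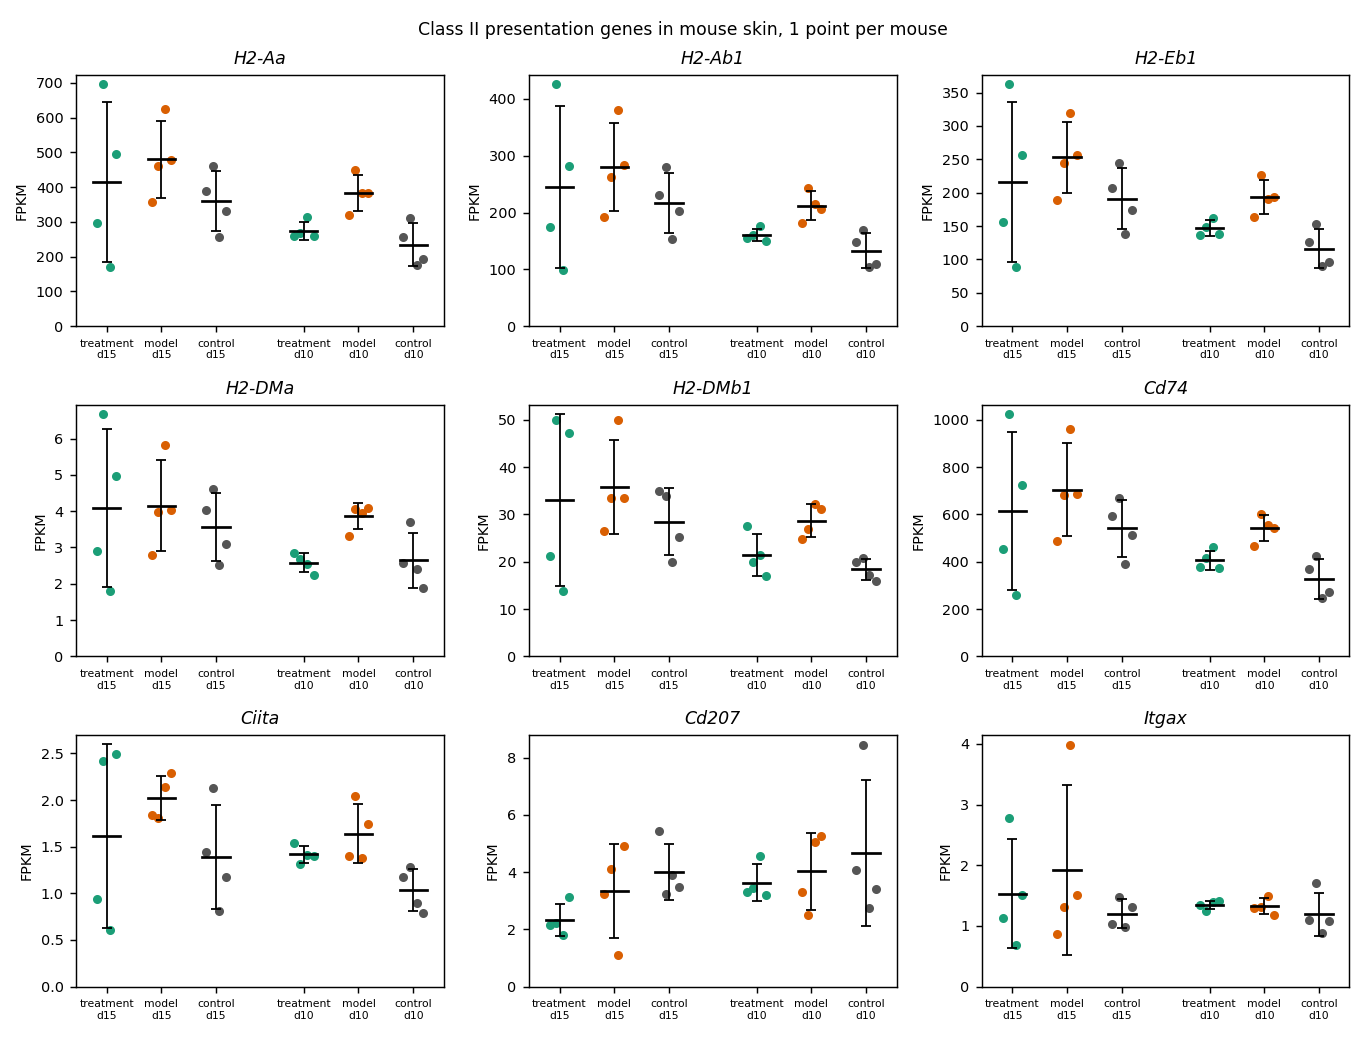
FPKM of the 9 genes (vertical axes, starting at 0) in treatment, model and control mice of day 15 (left) and day 10 (right), with 1 point per mouse and the mean ± SD of 4 mice in black. At day 10 the points of H2-Aa in model mice lie above all control points, and at day 15 the treatment mice spread from 171 to 698 FPKM.

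Across mice, 6 of the genes moved almost as 1. Pearson's r on log2(FPKM + 1) between H2-Aa, H2-Ab1, H2-Eb1, H2-DMa, H2-DMb1 and Cd74 was 0.929 to 0.996 over the 24 libraries, and 0.892 to 0.998 after the group means were subtracted. The coefficient of variation of H2-Aa over all libraries was 37.1%, but that of its ratio to Cd74 was 4.09%. This ratio stayed between 0.644 and 0.747, a 1.16-fold range, while H2-Aa itself varied 4.09-fold. The ratio of H2-Ab1 to Cd74 ran from 0.382 to 0.428 and that of H2-Eb1 to Cd74 from 0.332 to 0.390 (FPKM over FPKM). The chain genes and Cd74 thus held nearly constant proportions in skin in which their level varied 4.07- to 4.32-fold between mice. Ciita followed them less closely, with r of 0.834 to 0.897, and Itgax with r of 0.683 to 0.744. Cd207 did not follow them, with r of -0.111 to -0.057. These correlations are descriptions over 24 libraries that share groups, days and whole-tissue RNA.

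**Figure D2:**
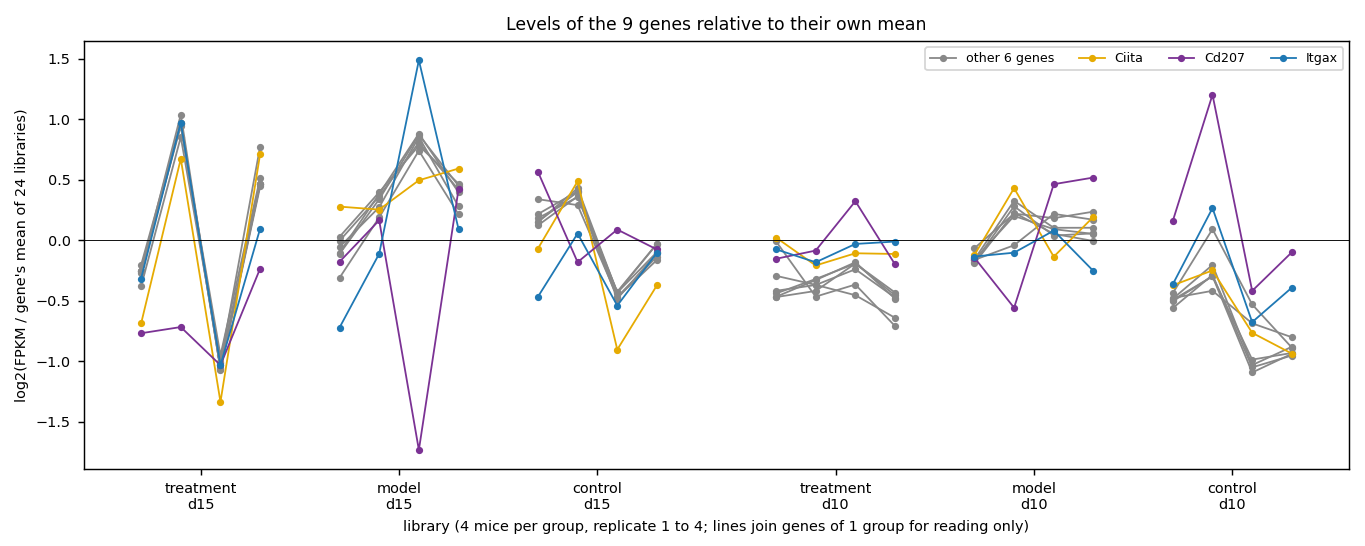
Each gene's level in each library (vertical axis, log2 of FPKM over the gene's mean of 24 libraries; horizontal axis, libraries by group, replicates 1 to 4). Grey lines for H2-Aa, H2-Ab1, H2-Eb1, H2-DMa, H2-DMb1 and Cd74 lie close together, and Cd207 (purple) departs from them, most in model replicate 3 of day 15, where it had 1.10 FPKM.

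The promoters of 3 of these co-varying genes are shown because the X and Y boxes are the sites through which Ciita acts on the family. They were taken from RefSeq (build GRCm38.p6, whereas the authors aligned to GRCm39), as the 150 bases before the annotated transcription start, 5′ to 3′. Capitals mark matches to the X box core ACNGATG and the Y box ATTGG on either strand.
H2-Eb1 (chr17:34305717-34305866, plus strand): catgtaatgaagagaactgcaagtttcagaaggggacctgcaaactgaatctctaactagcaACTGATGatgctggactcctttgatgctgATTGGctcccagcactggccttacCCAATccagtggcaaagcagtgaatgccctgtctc
H2-DMb1 (chr17:34153041-34153190, plus strand): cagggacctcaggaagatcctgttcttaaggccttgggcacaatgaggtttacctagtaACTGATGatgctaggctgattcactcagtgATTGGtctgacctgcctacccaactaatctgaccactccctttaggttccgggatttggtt
H2-Aa (chr17:34287824-34287973, minus strand): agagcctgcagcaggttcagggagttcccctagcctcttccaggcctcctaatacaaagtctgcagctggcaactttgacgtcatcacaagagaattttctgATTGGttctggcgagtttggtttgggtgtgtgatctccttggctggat

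In H2-Eb1 and H2-DMb1 the X box core ACTGATG stood 88 and 91 bases before the start, and ATTGG began 22 and 23 bases after its end. Windows of 250 bases before to 50 after the start were searched, on both strands, for ACNGATG followed on the same strand by ATTGG at 15 to 40 bases, motifs that do not overlap. Of all 32851 windows in the table, 67 (0.204%) held this ordered match, 9.85% held ACNGATG and 37.4% held ATTGG. Of the 9 genes, 6 had a window and 2 of these, H2-Eb1 and H2-DMb1, held the match. H2-Aa held both motifs, but not in this order and spacing, Itgax and 1 of 2 windows of H2-DMa held ATTGG alone, and neither motif was found in the window of Cd207 or the other window of H2-DMa. The paralogs H2-Eb2 and H2-DMb2 and the class I gene H2-D1 also held the match. A match describes letters and not a bound site. Boxes spelled otherwise were not searched for, so a gene without the match, such as H2-Aa, may still hold an X box. H2-Ab1, Ciita and Cd74 are named only.

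Model against control mice at day 10 asks what DHT injection was accompanied by in skin. The class II chain genes and Cd74 were 1.60- to 1.67-fold higher in model mice, and every model mouse exceeded every control mouse, but no member passed the threshold over all genes. H2-Aa, the alpha chain of I-A, had 320.4, 448, 384 and 384 FPKM in model mice, against 256, 310.5, 175 and 194 FPKM in control mice. H2-Ab1, its beta chain, had 182, 243, 215 and 207 FPKM in model mice, against 147, 169, 105 and 109 FPKM in control mice. H2-Eb1, the beta chain of I-E, had 164, 226, 191 and 193 FPKM in model mice, against 126, 152, 89.8 and 96.1 FPKM in control mice. In each of the 3 genes the lowest model mouse, replicate 1, stood just above the highest control mouse, replicate 2. The invariant chain Cd74 had 467, 600.2, 557 and 541 FPKM in model mice, against 368, 425, 245 and 272 FPKM in control mice, again without overlap.

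By limma on log2(FPKM + 1), the difference of model minus control was 0.76 (SE 0.29, adjusted p = 0.0869) for H2-Eb1, 0.75 (SE 0.30, adjusted p = 0.0924) for Cd74, 0.74 (SE 0.30, adjusted p = 0.0999) for H2-Aa and 0.69 (SE 0.30, adjusted p = 0.129) for H2-Ab1. For the peptide exchange factor, H2-DMb1 had 24.7, 26.9, 32.1 and 31.1 FPKM in model mice, against 19.8, 20.7, 17.2 and 15.9 FPKM in control mice, a log2 difference of 0.61 (SE 0.29, adjusted p = 0.163). Reads of H2-DMb1 may be shared with its near-identical neighbour H2-DMb2, so that its level is uncertain. Its partner H2-DMa overlapped, with 3.32, 4.05, 3.95 and 4.10 FPKM in model mice, against 2.57, 3.71, 2.41 and 1.88 FPKM in control mice (0.44, SE 0.23). The coactivator Ciita did not overlap, with 1.40, 2.05, 1.38 and 1.74 FPKM in model mice, against 1.17, 1.28, 0.894 and 0.794 FPKM in control mice (0.38, SE 0.20). The log2(FPKM + 1) scale understates the change of so low a gene. The mean of Ciita was 1.59-fold higher in model mice, beside 1.60- to 1.67-fold for the chain genes and Cd74. Cd207 and Itgax, which mark cells and not the presentation machinery, overlapped, with log2 differences of -0.12 (SE 0.29) and 0.10 (SE 0.23). Cd207 turned positive without control replicate 2 (0.16) or model replicate 2 (0.04).

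In all, 0 of 9 members were called at day 10, where 13.8% of tested genes were called, and 5 had an unadjusted p under 0.05, where 30.1% of tested genes did. Groups did not overlap for 6 of 9 members, all higher in model mice, where 12.5% of all tested genes did so. The members' median log2 difference was 0.61, beside -0.02 over all tested genes. Since 6 of the genes vary together, these counts do not stand for separate measurements. The calls depended on how the spread was estimated. When only the 8 libraries compared set it, Cd74, H2-Aa, H2-Ab1, H2-DMb1 and H2-Eb1 were called (adjusted p from 0.00763 to 0.0258), where 19.0% of tested genes were. With weights for each library 7 members were called, all but Cd207 and Itgax, where 37.8% of tested genes were.

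**Figure D3:**
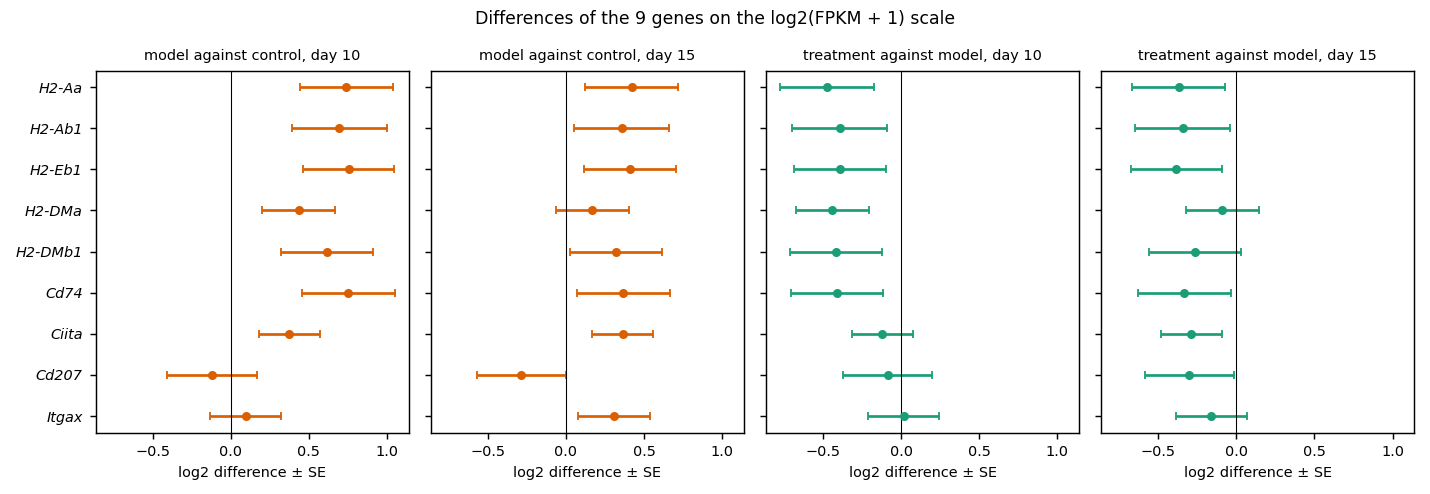
Log2 difference (horizontal axis, log2(FPKM + 1) scale) with the SE of the limma fit for the 9 genes in the 4 comparisons named above the panels, n = 4 mice a group. Class II genes lie right of 0 in model against control mice and left of 0 in treatment against model mice, and none passed an adjusted p of 0.05.

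Treatment against model mice at day 10 asks what the topical extract was accompanied by under DHT. Mean levels of the chain genes and Cd74 were 0.716 to 0.757 of those in model mice, and no member was called. H2-Aa had 258, 268, 313 and 261 FPKM in treatment mice, H2-Ab1 155, 161, 176 and 149 FPKM in treatment mice and H2-Eb1 137, 149, 163 and 138 FPKM in treatment mice. Cd74 had 378, 416, 460.3 and 374 FPKM in treatment mice. All treatment values of these 4 genes lay under the lowest model mouse, replicate 1 (320.4, 182, 164 and 467 FPKM). The log2 difference was -0.48 (SE 0.30, adjusted p = 0.599) for H2-Aa, -0.41 (SE 0.30, adjusted p = 0.656) for Cd74, -0.39 (SE 0.30, adjusted p = 0.681) for H2-Ab1 and -0.39 (SE 0.29, adjusted p = 0.667) for H2-Eb1.

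H2-DMa likewise did not overlap, with 2.84, 2.69, 2.54 and 2.23 FPKM in treatment mice, against 3.32, 4.05, 3.95 and 4.10 FPKM in model mice (-0.44, SE 0.23, adjusted p = 0.525). H2-DMb1 overlapped through treatment replicate 1, with 27.5, 20.0, 21.4 and 16.9 FPKM in treatment mice, against 24.7, 26.9, 32.1 and 31.1 FPKM in model mice (-0.42, SE 0.29). Ciita (1.54, 1.32, 1.41 and 1.40 FPKM in treatment mice) differed by -0.12 (SE 0.20), Cd207 by -0.09 (SE 0.29) and Itgax by 0.02 (SE 0.23), all with overlap. The sign turned for Cd207 without model replicate 3 or 4 (0.02 and 0.03) and for Itgax without model replicate 4 (-0.01). In total 8 of 9 members were lower in treatment mice and 5 were lower without overlap, where 6.24% of tested genes were. The count of called members was 0, where 0.192% of tested genes were called, and 0 had an unadjusted p under 0.05, where 10.4% did. Without the treatment mice with low Ddx3y, here replicate 3, the log2 difference was -0.54 for H2-Aa and -0.47 for Cd74 (adjusted p = 0.393 and 0.479), with 0 members called. The model libraries of this day held Umod and the treatment libraries did not, and its part in the difference was not tested.

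At day 10 the mean of treatment mice lay between those of model and control mice for 6 members, H2-Aa, H2-Ab1, H2-Eb1, H2-DMb1, Cd74 and Ciita. Against control mice the log2 difference was 0.36 (SE 0.29, adjusted p = 0.418) for H2-Eb1, 0.34 for Cd74, 0.30 for H2-Ab1, 0.26 for H2-Aa and 0.20 for H2-DMb1, and all 5 overlapped. The Ciita values of treatment mice lay above all control values, with a log2 difference of 0.26 (SE 0.20, adjusted p = 0.398). This was 1 of 9 members higher without overlap, where 11.4% of tested genes were. None of the 9 was called by limma, where 3.24% of tested genes were, and 0 had an unadjusted p under 0.05, where 26.0% did. H2-DMa differed by -0.00636 (SE 0.23), a sign that turned under median-of-ratios scaling, a common total, voom on recovered reads and array weights, and without control replicate 2 (0.12) or treatment replicate 4 (0.04). Cd207 had 3.29, 3.45, 4.58 and 3.19 FPKM in treatment mice, against 4.09, 8.42, 2.74 and 3.42 FPKM in control mice, and its difference of -0.21 turned to 0.07 without control replicate 2, whose 8.42 FPKM was the highest of all libraries. Without the treatment mice with low Ddx3y, H2-Eb1 differed by 0.31 and Cd207 by -0.30. The control libraries of this day held Umod and the treatment libraries did not, and its part in these differences was not tested. The 3 comparisons of this day share their libraries in pairs, so they are not independent of each other.

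At day 15 the class II genes of model mice were on average higher than in control mice, but the groups overlapped for all 9 members, where 7.89% of tested genes were higher and 12.3% lower without overlap. H2-Aa had 356, 459.9, 626 and 478 FPKM in model mice, against 389, 459.9, 256 and 332 FPKM in control mice. Cd74 had 487, 681, 962 and 687 FPKM in model mice, against 593, 669, 389 and 512 FPKM in control mice. Model replicate 3 was the highest of both genes and control replicate 3 the lowest. The log2 difference was 0.42 (SE 0.30, adjusted p = 0.356) for H2-Aa, 0.41 (SE 0.29, adjusted p = 0.356) for H2-Eb1, 0.37 for Cd74, 0.36 for H2-Ab1, 0.32 for H2-DMb1 and 0.17 for H2-DMa. Ciita had 1.84, 1.81, 2.14 and 2.29 FPKM in model mice, against 1.45, 2.13, 0.812 and 1.17 FPKM in control mice (0.36, SE 0.20, adjusted p = 0.216), and was called with array weights alone (adjusted p = 0.0309), where 35.2% of tested genes were. The overlap of Ciita came from control replicate 2, which exceeded 2 of the model mice. Cd207 had 3.23, 4.10, 1.10 and 4.90 FPKM in model mice, against 5.42, 3.23, 3.89 and 3.47 FPKM in control mice (-0.29, SE 0.29), and its difference was 0.03 without model replicate 3. That mouse had the lowest Cd207 and the highest Itgax of all libraries, 3.98 FPKM, against 0.974 to 1.47 FPKM of Itgax in control mice. The members' median log2 difference was 0.36, beside -0.03 over all tested genes. By limma 0 of 9 were called, where 10.8% of tested genes were, and 0 had an unadjusted p under 0.05, where 30.3% did.

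Treatment mice of day 15 varied more in the class II genes than any other group. H2-Aa had 297, 698, 171 and 494 FPKM in treatment mice, and Cd74 had 453, 1025, 258 and 722 FPKM in treatment mice. Replicate 2 held the highest and replicate 3 the lowest H2-Aa of all 24 libraries, a 4.09-fold range within 1 group. The coefficient of variation lay between 53.1% and 60.9% for the 6 genes and Ciita, against 6.63% to 20.7% in treatment mice of day 10. The genes kept their proportions in these mice, with H2-Aa over Cd74 between 0.655 and 0.684. H2-Ab1 had 174, 426, 98.8 and 282 FPKM in treatment mice, H2-Eb1 156, 363, 89.2 and 257 FPKM in treatment mice and H2-DMb1 21.2, 49.9, 13.7 and 47.3 FPKM in treatment mice. Ciita was likewise lowest in replicate 3, with 0.943, 2.42, 0.602 and 2.49 FPKM in treatment mice.

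Against model mice of day 15, all 9 members had a negative log2 difference, beside a median of -0.02 over all tested genes. All 9 overlapped, where 7.98% of tested genes were higher and 4.79% lower without overlap. The log2 difference was -0.39 (SE 0.29, adjusted p = 0.359) for H2-Eb1, -0.37 for H2-Aa, -0.34 for H2-Ab1, -0.33 for Cd74, -0.26 for H2-DMb1 and -0.09 for H2-DMa. Ciita differed by -0.29 (SE 0.20, adjusted p = 0.304). The sign rested on single mice. Without treatment replicate 3 the difference was 0.02 for Cd74 and H2-Ab1, 0.08 for H2-DMb1, 0.16 for H2-DMa and 0.01 for Itgax, and without model replicate 3 it was 0.05 for H2-DMa and 0.13 for Itgax. H2-DMa was also 0.00077 without treatment replicate 1. Of tested genes 19.7% were called in this comparison and 0 of 9 members, and 35.1% had an unadjusted p under 0.05, which 0 members did. Without the 3 treatment mice of day 15 with low Ddx3y, replicate 3 alone was set against the model mice, under the assumption that it varies like the other groups. Then 7 members were called lower, all but Cd207 and Itgax, where 29.6% of tested genes were called. H2-Aa then differed by -1.46 and Cd74 by -1.40 (adjusted p = 0.00639 and 0.00808). These values describe 1 mouse.

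Cd207 was the one member whose treatment and control mice of day 15 did not overlap. It had 2.15, 2.23, 1.79 and 3.11 FPKM in treatment mice, against 5.42, 3.23, 3.89 and 3.47 FPKM in control mice, so that the highest treatment mouse lay just under the lowest control mouse. The log2 difference was -0.59 (SE 0.29) with an unadjusted p of 0.0525 and an adjusted p of 0.260 by limma, and -0.82 without the treatment mice with low Ddx3y (adjusted p = 0.430, 1 mouse). Of tested genes, 4.0% were lower without overlap in this comparison. The other 8 members differed by 0.01 to 0.15, and all of them overlapped. H2-Aa (0.05) and H2-Ab1 (0.01) turned negative without treatment replicate 2 (-0.26 and -0.32), treatment replicate 4 (-0.10 and -0.12) or control replicate 3 (-0.10 and -0.14), and H2-Ab1 also without control replicate 4 (-0.01) and with a common total per library (-0.02). Without the treatment mice with low Ddx3y, H2-Aa differed by -1.04 and H2-Ab1 by -1.09 (1 mouse). Apart from H2-Aa, H2-Ab1 and Cd207, the signs of the members in this comparison were not followed over the fits. None of the 9 was called, where 0.314% of tested genes were, and 0 had an unadjusted p under 0.05, where 19.7% did.

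Day 15 was compared with day 10 among mice that had the same injections and topical liquid. In control mice Cd74 had 593, 669, 389 and 512 FPKM at day 15, against 368, 425, 245 and 272 FPKM at day 10. The difference of the means was close in size to that between model and control mice at day 10, with log2 differences of 0.73 (SE 0.30, adjusted p = 0.143) for Cd74, 0.71 for H2-Eb1, 0.70 for H2-Ab1, 0.62 for H2-Aa and 0.58 for H2-DMb1. All 9 members overlapped between the days, where 7.01% of tested genes were higher and 15.4% lower without overlap. By limma 0 were called, where 4.81% of tested genes were, and 3 (Cd74, H2-Eb1 and H2-Ab1) had an unadjusted p under 0.05, where 23.9% did. With array weights 6 were called, where 28.2% of tested genes were (H2-Aa, H2-Ab1, H2-Eb1, H2-DMa, H2-DMb1 and Cd74). Some leukocyte genes were also higher at day 15 in control mice, which were different animals on the 2 days. Of 4 tested T cell genes 2 were positive and 2 negative (median log2 difference -0.07), and Cd79b of B cells differed by -0.08. Ptprc was 2.43-fold higher without overlap (1.10, SE 0.41, adjusted p = 0.109), and Adgre1 (1.30, SE 0.34, adjusted p = 0.0362), Ctss (1.53, SE 0.43, adjusted p = 0.0435) and Cd86 (0.86, SE 0.22, adjusted p = 0.0363) rose. These 3 calls ended when any of control mice 1, 2 and 4 of day 15 or 1, 3 and 4 of day 10 was left out, and those of Ctss and Adgre1 also without mouse 2 of day 10 (highest adjusted p 0.125). Ctss was also not called without the filter or with median-of-ratios scaling, and Cd86 with voom. Of 10 macrophage genes 1 was called and 10 were positive. The part of these cells in the class II difference was not tested. The difference of Cd207, -0.10, was 0.17 without control replicate 2 of day 10. Itgax differed by 0.01 and changed sign with a common total per library and without any 1 of control replicates 1, 3 and 4 of day 10 and 2 and 4 of day 15 (-0.06 to -0.01). Control and model libraries of day 10 held Umod and those of day 15 did not, and its part in these differences was not tested.

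In model mice the difference between days was 0.37 (SE 0.29) for H2-Eb1, 0.34 for Cd74 and 0.30 for H2-Aa. All 9 members overlapped, where 2.65% of tested genes were higher and 12.8% lower without overlap, and 0 of 9 were called, where 8.47% of tested genes were, with 0 under an unadjusted p of 0.05, where 27.1% were. In treatment mice Cd74 differed by 0.42 (SE 0.30), H2-DMb1 by 0.44 and H2-Aa by 0.41, and 0 of 9 were called, where 9.64% of tested genes were, with 0 under an unadjusted p of 0.05, where 26.3% were. This count rested on 1 mouse. Without treatment replicate 3 of day 15, H2-Aa, H2-Ab1, H2-Eb1, H2-DMa, H2-DMb1 and Cd74 were called higher at day 15 (log2 differences of 0.66 to 0.78, adjusted p from 0.0328 to 0.0377), where 19.5% of tested genes were called. With array weights H2-DMb1 was called (adjusted p = 0.0395), where 20.0% of tested genes were. Without the mice with low Ddx3y, replicate 3 was left alone and the difference of Cd74 was -0.59. Ciita differed by 0.03 between the days, and by -0.13 and -0.14 without treatment replicate 2 or 4 of day 15, while Itgax (0.05) was -0.17 without replicate 2. Cd207 had 2.15, 2.23, 1.79 and 3.11 FPKM at day 15, against 3.29, 3.45, 4.58 and 3.19 FPKM at day 10, without overlap (-0.48, SE 0.29, adjusted p = 0.288). It was the 1 member lower without overlap, where 9.57% of tested genes were.

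Whether the model-control or the treatment-model difference changed between the days was tested directly. For the model-control difference, day 15 minus day 10 was -0.38 (SE 0.42) for Cd74 and -0.32 (SE 0.42) for H2-Aa, and for the treatment-model difference it was 0.08 (SE 0.42) and 0.11 (SE 0.42). By limma 0 of 9 members were called in either test, where 0.0% and 0.0997% of tested genes were, and 0 had an unadjusted p under 0.05, where 2.7% and 14.4% did. The small change of the treatment-model difference rested on the treatment mice with low Ddx3y. Without them that difference was -0.54 at day 10 and -1.46 at day 15 for H2-Aa, and -0.47 and -1.40 for Cd74. The treatment group of day 15 was then replicate 3 alone, so these values describe 1 mouse at that day.

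Other genes of the class II pathway were described by a list of 25 symbols, of which 21 were in the table and 18 were tested. Of these 18, 4 rose in model against control mice at day 10 and 0 fell, where 13.8% of all tested genes were called. Ctss, the protease cathepsin S that trims the invariant chain in antigen presenting cells, averaged 193 ± 63.4 FPKM in model mice and 67.6 ± 13.6 FPKM in control mice (SD, n = 4 each), a log2 difference of 1.47 (SE 0.43, adjusted p = 0.0287). Lgmn, the asparaginyl endopeptidase legumain, averaged 127 ± 29.3 and 59.8 ± 6.72 FPKM in model and control mice (1.05, SE 0.29, adjusted p = 0.0228). The costimulatory ligand Cd86 averaged 8.49 ± 1.22 and 3.44 ± 1.17 FPKM in model and control mice (1.12, SE 0.22, adjusted p = 0.00513), and Nfya, an NF-Y subunit, differed by 0.22 (SE 0.07, adjusted p = 0.0436). Cd86 was called in all 17 fits tried. The calls of Ctss and Lgmn ended when any of control mice 1, 3 and 4 or model mice 2, 3 and 4 was left out (highest adjusted p 0.0953 for Ctss and 0.0805 for Lgmn). That of Nfya ended when any of control mice 1, 2 and 4 or model mice 1 to 4 was left out, without the filter, and with only the groups compared (highest adjusted p 0.128). The list's median log2 difference was 0.19, beside -0.02 over all tested genes.

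At day 15, 2 of the 18 were called in model against control mice, both higher. Called in either direction were 10.8% of all tested genes, a share near that of the list, and 552 of 13039 were called higher. Marchf1, the ubiquitin ligase that sends class II molecules and Cd86 to degradation, averaged 5.26 ± 1.73 FPKM in model and 2.0 ± 0.564 FPKM in control mice (1.04, SE 0.22, adjusted p = 0.00960), and was called in all fits in which it was tested. Lgmn differed by 0.96 (SE 0.29, adjusted p = 0.0390), a call that ended when any of control or model mice 2 to 4 was left out, without the filter or with only the groups compared (highest adjusted p 0.134). In treatment against model mice of day 15, 4 of the 18 were called, where 19.7% of all tested genes were. Marchf1 (-1.09, SE 0.22, adjusted p = 0.00335), Cd86 (-0.77, SE 0.22, adjusted p = 0.0225) and the intramembrane protease Sppl2a (-0.38, SE 0.11, adjusted p = 0.0234), which clears the last fragment of Cd74, fell, and the NF-Y subunit Nfyc (0.25, SE 0.05, adjusted p = 0.00388) rose. All 4 calls ended when only the 8 libraries compared set the spread (adjusted p = 0.186 for Cd86), a fit in which 0 of all tested genes were called and 2503 had an unadjusted p under 0.05. The call of Cd86 also ended without treatment mouse 1 or 3 or model mouse 3 (highest adjusted p 0.0837), and that of Sppl2a without treatment mouse 1 or model mouse 3 or 4 (highest adjusted p 0.0969). Without the treatment mice with low Ddx3y, Marchf1 differed by -1.63, Cd86 by -1.18, Nfyc by 0.27 and Sppl2a by -0.42, the last not called (adjusted p = 0.0815).

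Of the 18, 0 were called in treatment against model mice at day 10 or in treatment against control mice at day 15, and 1 in treatment against control mice at day 10, Lgmn (1.16, SE 0.29, adjusted p = 0.0347, a call that ended when any of treatment mice 2 to 4 or control mice 1, 3 and 4 was left out, highest adjusted p 0.114). Of all tested genes, 0.192% were called in treatment against model mice at day 10. In treatment against control mice, 0.314% were called at day 15 and 3.24% at day 10. The RFX subunits Rfx5, Rfxap and Rfxank, which bind the X box with Ciita, were not called in any of the 6 comparisons. H2-Oa and H2-Ob, the subunits of the H2-DM inhibitor H2-O, averaged 0.213 to 0.691 FPKM in the groups and were under the filter, as was H2-Eb2. The costimulatory molecules Cd80 and Cd40 differed by 0.88 and 0.85 in model against control mice at day 10 and were not called.

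**Figure D4:**
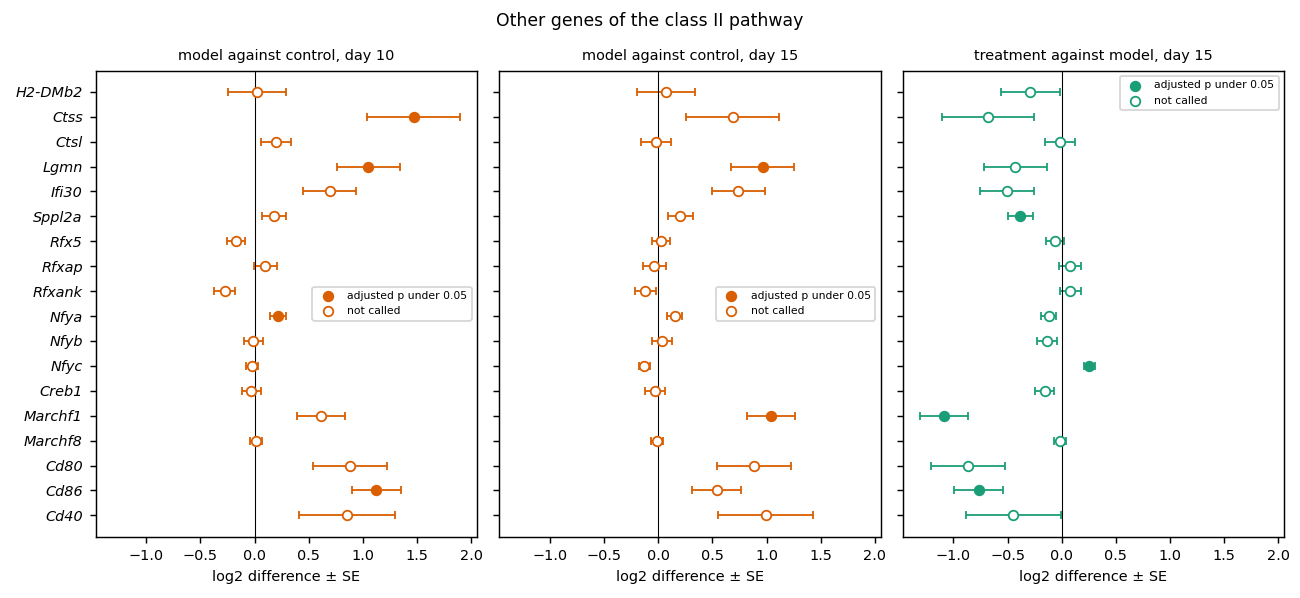
Log2 difference ± SE (horizontal axes) of the 18 tested genes of the class II pathway list in 3 comparisons, n = 4 mice a group. Filled points passed an adjusted p of 0.05: Ctss, Lgmn, Nfya and Cd86 at day 10, Lgmn and Marchf1 at day 15, and Sppl2a, Nfyc, Marchf1 and Cd86 in treatment against model mice.

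Class I presentation genes, which load peptides from the cytosol, were set beside the class II genes. Of 16, 1 rose in model against control mice at day 10 and 0 fell, where 13.8% of all tested genes were called. This was B2m, the light chain of class I molecules, averaging 996 ± 121 and 612 ± 66.5 FPKM in model and control mice (0.70, SE 0.22, adjusted p = 0.0406). That call ended when any of model mice 2 to 4 or control mice 1, 3 and 4 was left out, without the filter and with median-of-ratios scaling (highest adjusted p 0.129). In treatment against model mice of day 15, 19.7% of all tested genes were called in either direction, and 1215 of 13039 were called lower. Of the 16, 3 were called, all lower, a share near that called in either direction. These were Nlrc5, the class I counterpart of Ciita (-0.70, SE 0.19, adjusted p = 0.0153), the peptide-trimming enzyme Erap1 (-0.39, SE 0.11, adjusted p = 0.0153) and the chaperone Canx (-0.18, SE 0.05, adjusted p = 0.0173). All 3 calls ended with only the groups compared, those of Nlrc5 and Erap1 also without treatment mouse 1 or model mouse 3 (highest adjusted p 0.0696 for Nlrc5 and 0.0698 for Erap1), and that of Canx with array weights and without the mice with low Ddx3y. In the other 4 comparisons 0 of 16 were called. Of all tested genes, 10.8% were called in model against control mice at day 15 and 0.192% in treatment against model mice at day 10. In treatment against control mice 3.24% were called at day 10 and 0.314% at day 15. The median log2 difference of the list was 0.30 at day 10 and 0.31 at day 15 in model against control mice, and -0.34 in treatment against model mice at day 15.

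Of the interferon gamma axis, 7 of 8 genes were tested, and Ifng itself averaged 0.00513 to 0.388 FPKM in the groups and was under the filter. In model against control mice at day 10 the receptor chain Ifngr1 (0.60, SE 0.17, adjusted p = 0.0246) and the kinase Jak1 (0.48, SE 0.15, adjusted p = 0.0341) rose. The other 5 were not called, where 13.8% of all tested genes were called. At day 15, 10.8% of tested genes were called in either direction, and 552 of 13039 were called higher. Jak1 was also the 1 of 7 called at that day, again higher (0.48, SE 0.15, adjusted p = 0.0436 by limma), a share near that called in either direction. It was the 1 of 7 that rose in treatment against control mice at day 10 (0.61, SE 0.15, adjusted p = 0.0303), where 3.24% were called. None of the 7 was called in the other 3 comparisons. Of all tested genes, 0.192% and 19.7% were called in treatment against model mice at day 10 and day 15, and 0.314% in treatment against control mice at day 15. The calls of day 10 ended when any of model mice 2 to 4 or control mice 3 and 4 was left out, and for Jak1 also without control mouse 1 and with median-of-ratios scaling (highest adjusted p 0.0968). The day 15 call of Jak1 ended when any of mice 2 to 4 of either group was left out (highest adjusted p 0.155), without the filter, and with median-of-ratios scaling, voom or only the groups compared. Its call in treatment mice ended when any of treatment mice 2 to 4 or control mice 1, 3 and 4 was left out (highest adjusted p 0.114).

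Markers of several cell types that carry class II were higher in the model mice of day 10 as well. Of 10 macrophage genes, 10 rose in model against control mice at day 10, where 13.8% of all tested genes were called. At day 15, 3 rose (Cd163, Mrc1 and Mertk), where 10.8% of tested genes were called. The same 3 names fell in treatment against model mice at day 15, where 19.7% were called. The count of 3 that fell was 10 without the treatment mice with low Ddx3y and 0 with only the groups compared. The count of 10 at day 10 was 6 without model mouse 2 or without control mouse 3, and 8 to 10 in the other fits. In treatment against control mice at day 10, 5 of the 10 rose (Adgre1, Cd68, Mrc1, C1qb and C1qc), where 3.24% of tested genes were called. That count was 1 without any of treatment mice 2 to 4 or control mice 1, 3 and 4, and 9 with only the groups compared or with array weights. Adgre1 lost its call there in 11 of 18 fits (highest adjusted p 0.136), and Mrc1 in none. In treatment against model mice of day 10, 0 of the 10 were called, where 0.192% of tested genes were. Adgre1, which encodes F4/80, averaged 38.6 ± 6.53 FPKM in model and 13.6 ± 3.32 FPKM in control mice of day 10 (1.46, SE 0.34, adjusted p = 0.0109). The summed FPKM of the 10 genes was 1468 to 1868 in treatment mice, 1624 to 2343 in model mice and 651 to 1039 in control mice of day 10. At day 15 it was 748 to 2939 in treatment, 2078 to 4166 in model and 1045 to 2085 in control mice. Conventional type 2 dendritic cell markers rose in 3 of 5 at day 10, where 13.8% of tested genes were called. These were Clec10a (1.24, SE 0.22, adjusted p = 0.00274), Irf4 (0.92, SE 0.19, adjusted p = 0.00555) and Sirpa. The sum of the 5 markers was 161 to 184 FPKM in model and 81.1 to 105 FPKM in control mice. Clec10a was the 1 of 5 that rose at day 15 (0.73, SE 0.22, adjusted p = 0.0391), where 10.8% of tested genes were called. Cd209a was the 1 of 5 that fell in treatment against model mice of day 15 (-0.76, SE 0.26, adjusted p = 0.0446), where 19.7% were called. The first of these calls ended when any of model mice 2 to 4 or control mice 1 to 4 was left out and without the filter (highest adjusted p 0.119), and the second when any of treatment mice 1, 3 and 4 or model mice 2 to 4 was left out and in 4 other fits (highest adjusted p 0.248). In model against control mice of day 10, Adgre1, Clec10a and Irf4 were called in all fits in which they were tested, and the call of Sirpa ended when any of model mice 2 to 4 or control mice 3 and 4 was left out (highest adjusted p 0.077). The part of these cells in the class II levels was not tested.

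Of the Langerhans cell markers none rose in model mice. Cd207 is described above, and Epcam, which Langerhans cells share with hair follicle keratinocytes, fell in model against control mice at day 10 (-0.52, SE 0.14, adjusted p = 0.0182) and day 15 (-0.64, SE 0.14, adjusted p = 0.00933). The first call ended when any of model mice 2 and 3 or control mice 3 and 4 was left out (highest adjusted p 0.07), and the second was made in all 17 fits. The summed FPKM of Cd207, Epcam and Ly75, of which Epcam makes up the larger part, was 44.0 to 55.2 in model and 61.6 to 79.6 in control mice of day 10. Among markers of dendritic cells in general, Flt3 and Zbtb46 were under the filter, at group means of 0.39 to 0.926 FPKM. Xcr1 of the type 1 cells was at 0.221 to 0.431 FPKM, and Batf3 was the 1 of 4 tested type 1 markers that rose, at day 10 (not called in 6 of 16 fits). Ccr7, which migrating dendritic cells carry, was not called in any of the 6 comparisons, and Cd83 of the same list rose at day 10 (not called in 4 of 17 fits). B cells also carry class II, and their markers Ms4a1 and Cd79a had group means of at most 0.0509 and 0.206 FPKM. Cd79b, which passed the filter, had group means of 0.418 to 1.10 FPKM and differed by 0.32 at day 10 and 0.38 at day 15 in model against control mice, without a call in the 6 comparisons. The sum for dermal fibroblasts (Col1a1, Col3a1 and Dcn) was 4833 to 7352 FPKM in model and 2692 to 4016 FPKM in control mice of day 10, and Col3a1 and Dcn rose. Both also rose in model against control mice at day 15, and Dcn fell in treatment against model mice at day 15. Of the other lists, Ccr2 of 2 monocyte genes fell in treatment against model mice at day 15, Krt5 and Krt14 of 3 keratinocyte genes fell in model against control mice at day 15, and 0 genes of T cells, lymph node stroma and skeletal muscle were called in the 6 comparisons. Of all tested genes, 13.8% and 10.8% were called in model against control mice at day 10 and day 15. In treatment against model mice at day 15, 19.7% were called.

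Ptprc itself was higher in model than in control mice of day 10, and the ratio of Cd74 to Ptprc was lower. Ptprc, which all leukocytes carry, had 14.2 to 22.1 FPKM in model and 5.73 to 8.40 FPKM in control mice of day 10 (1.23, SE 0.41, adjusted p = 0.0505). The ratio of Cd74 to Ptprc had a median of 26.5 in treatment mice, 32.1 in model mice and 48.4 in control mice of day 10. The highest ratio was 35.8 in treatment and 32.8 in model mice, under the lowest control mouse at 39.5. At day 15 it was 27.1 to 50.8 in treatment, 12.3 to 36.4 in model and 24.9 to 46.1 in control mice, with overlap. The lowest ratio, 12.3, belonged to model replicate 3, in which the monocyte gene Ly6c2 stood at 173 FPKM. These ratios are given as a description with no test. Any gene that rose less than Ptprc has a lower ratio in model mice, and the share of all genes that did so was not counted.

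**Figure D5:**
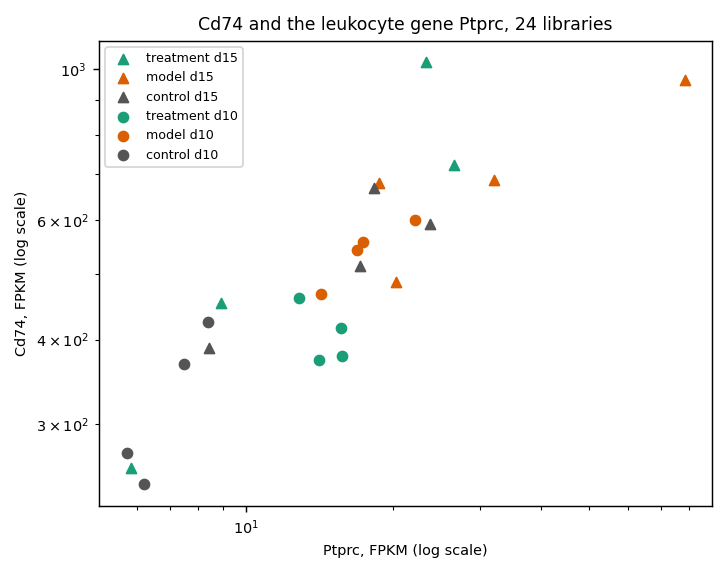
Cd74 against Ptprc in the 24 libraries (both axes FPKM, log scale), 1 point per mouse, triangles for day 15 and circles for day 10. Control mice of day 10 lie at 5.73 to 8.40 FPKM of Ptprc and model mice of that day at 14.2 to 22.1 FPKM, and model replicate 3 of day 15 lies at the far right with 78.3 FPKM.

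The genes most like the class II group were ranked by r with the mean z-score of H2-Aa, H2-Ab1, H2-Eb1, H2-DMa, H2-DMb1 and Cd74 over the 24 libraries. After those 6 came Myo1g (r = 0.925), Cybb, the NADPH oxidase subunit (0.922), the class I gene H2-T23 (0.921), the proteasome activator Psme1 (0.918), Gpsm3 (0.917), Tmem176b (0.917), Spn (0.915), Dock2 (0.913), Cyp4v3 (0.913) and Ikzf1 (0.912). Ciita came at rank 59 (0.887), Itgax at rank 726 (0.734) and Cd207 at rank 5075 (-0.087) of the tested genes. After the group means were subtracted, the 10 genes kept r of 0.892 to 0.938. Before that subtraction Ptprc stood at 0.864 and Adgre1 at 0.849. All of these are correlations across the same 24 libraries.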

How the data were processed

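Poly(A) RNA of mouse skin, extracted with TRIzol, was sequenced from 24 mice, per the labels. The authors deposited FPKM per gene symbol, made with fastp, HISAT2 (build GRCm39) and HTSeq per the submitters' processing notes, with versions and annotation not given in the sources used here. Whole reads were recovered for 100% of 18715 genes above 0 (tolerance 0.05 read).

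Genes at 1 FPKM or more in at least 4 libraries were kept (13039, with 5853 left out). limma 3.58.1 in R 4.3.3 (lmFit, eBayes with trend and robust) was fitted to log2(FPKM + 1) over all 24 libraries with 6 group means, a scale that understates the change of low genes. P-values were two-sided, with Benjamini-Hochberg adjustment over all tested genes in each of 11 comparisons, and a gene was called under 0.05. The fit was tested on simulated data. Groups came from the sample titles, and same-numbered mice are not pairs.

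All 9 members are named, as are the pathway and marker list genes that were called, and the 10 genes most like the class II group. The members and lists were chosen with earlier results of these data known. Each fit was repeated with a replicate block, with array weights, with only the groups compared, with voom on recovered reads, with libraries brought to a common total or scaled by median of ratios, without the filter, with a pseudocount of 0.1, on genes averaging 5 FPKM or more, and without each mouse in turn. Leaving out the 4 treatment mice with low Ddx3y was added after the data were seen.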

Additional observations from a re-analysis of the deposited data

Results flagged for a closer look

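H2-Aa in replicate 3 of the treatment mice of day 10, at 313 FPKM, stood apart from the 258, 261 and 268 FPKM of the other mice of its group by 0.831 of the group's range, just above Dixon's critical value for 4 samples. This was 1 of 54 groups examined, and chance flags about 1 in 20 groups. The library is one of the 4 with low Ddx3y, and the part of this in the H2-Aa level was not tested. It lay under all 4 model mice of that day, the lowest of which had 320.4 FPKM.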

How the results depend on the processing

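Fits that changed 1 choice at a time left 202 of 209 counts of called members as reported. The count differed in model against control mice of day 10 with only the groups compared (5) and with array weights (7). With array weights it was also 1 in model against control mice of day 15, 6 in control mice between the days and 1 in treatment mice between the days. Over the fits that left out mice it ran from 0 to 6 in treatment mice between the days and from 0 to 7 in treatment against model mice of day 15. The cause was not tested, except that leaving out the 4 treatment mice with low Ddx3y, an alternative chosen after the data were seen, leaves 1 treatment mouse of day 15.

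Array weights turned the log2 difference to 0.19 for Cd207 in model against control, day 15, -0.0029 for Itgax in treatment against model, day 10, 0.10 for H2-DMa in treatment against model, day 15, 0.089 for H2-DMb1 in treatment against model, day 15, 0.026 for Itgax in treatment against model, day 15 and 0.090 for H2-DMa in treatment against control, day 10. A common total per library turned the log2 difference to -0.0077 for Itgax in day 15 against day 10 of control, -0.011 for Ciita in day 15 against day 10 of treatment, 0.00087 for H2-DMa in treatment against control, day 10 and -0.018 for H2-Ab1 in treatment against control, day 15. A pseudocount of 0.1 turned the log2 difference to -0.036 for Ciita in day 15 against day 10 of treatment. Median-of-ratios scaling turned the log2 difference to 0.034 for H2-DMa in treatment against control, day 10. The voom fit on recovered reads turned the log2 difference to 0.047 for H2-DMa in treatment against control, day 10.

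The sign of the log2 difference changed with the mice left out for the following genes, among the 60 differences whose sign was followed. In model against control, day 10 it ran from -0.29 to 0.16 for Cd207. In model against control, day 15 it ran from -0.47 to 0.029 for Cd207. In treatment against model, day 10 it ran from -0.25 to 0.031 for Cd207 and -0.013 to 0.051 for Itgax. In treatment against model, day 15 it ran from -1.45 to 0.023 for H2-Ab1, -0.85 to 0.16 for H2-DMa, -1.29 to 0.078 for H2-DMb1, -1.40 to 0.022 for Cd74 and -0.68 to 0.13 for Itgax. In day 15 against day 10 of control mice it ran from -0.27 to 0.17 for Cd207 and -0.058 to 0.12 for Itgax. In day 15 against day 10 of treatment mice it ran from -0.62 to 0.77 for H2-Aa, -0.65 to 0.78 for H2-Ab1, -0.66 to 0.74 for H2-Eb1, -0.35 to 0.66 for H2-DMa, -0.58 to 0.78 for H2-DMb1, -0.59 to 0.78 for Cd74, -0.59 to 0.24 for Ciita and -0.46 to 0.22 for Itgax. In treatment against control, day 10 it ran from -0.11 to 0.12 for H2-DMa and -0.38 to 0.069 for Cd207. In treatment against control, day 15 it ran from -1.04 to 0.41 for H2-Aa and -1.09 to 0.38 for H2-Ab1. Of these 60 log2 differences of the members, 23 changed sign in at least 1 fit. Those of model mice between the days were not followed. In treatment against control mice, only H2-Eb1, H2-DMa and Cd207 were followed at day 10, and only H2-Aa, H2-Ab1 and Cd207 at day 15. Whether the remaining differences keep their sign was not examined.

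Mice with the same replicate number are different animals, and their deviations from the group means did not go together (mean r 0.00468 over 60 pairs, 21 above 0.1). The fit with the replicate number as a block called 0 of 9 members in every comparison and changed no call of a member. Depth is lowest for Cd207, at 68 to 479 reads per library, and with 4 mice a group the SE of the members' log2 differences between groups was 0.20 to 0.30. Median-of-ratios scaling moved the median over all tested genes in model mice between the days to 0.02, beside -0.08 as reported.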
